A study of Mus musculus with 8 samples.

Results

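The genes described here are 10 genes of the mouse MHC class II antigen presentation pathway: the class II chain genes H2-Aa, H2-Ab1 and H2-Eb1, the invariant chain gene Cd74, the peptide-exchange genes H2-DMa, H2-DMb1 and H2-DMb2, the modulator genes H2-Oa and H2-Ob, and the transactivator gene Ciita. Every probe that carried one of these symbols in the deposited table was taken, whatever its values. This gave 13 of 25697 probes and 10 of 18138 gene symbols, since H2-Ab1 has 3 probes and Cd74 has 2. All 13 probes entered the tests, and 12 of them were detected on all 8 arrays. The exception was the H2-Ob probe, which was not detected on 1 WT unstimulated array.

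The array experiment compared the gene expression of WT and iNOS-deficient macrophages before and after M1 activation. Bone marrow from female mice aged 8 weeks was cultured for 7 days with GM-CSF (10 ng ml-1), a growth factor that drives myeloid precursors towards macrophages and also supports dendritic cell growth. Cultures were then left without a stimulus or received LPS at 200 ng ml-1 together with IFN-γ at 10 ng ml-1, and RNA was taken after 6 h. LPS is a bacterial cell wall product sensed by Toll-like receptor 4, and IFN-γ is the main cytokine inducer of MHC class II in macrophages. WT mice were C57BL/6J, and the mice labelled iNOS-/- carried the Nos2tm1Lau allele, a germline mutation that the methods list as strain B6.129P2. The labels name C57bl/6J for both genotypes. The 4 groups (unstimulated and M1 cells of either genotype) were each measured on 2 Illumina bead arrays. Whether the paired arrays in each group represent separate animals is stated neither in the labels nor in the methods, so the p-values measure only the spread between arrays, which may be technical.

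MHC class II molecules are pairs of an alpha and a beta chain that carry peptides from ingested proteins to the surface of antigen-presenting cells, where CD4+ T cells read them. The invariant chain (CD74) occupies the groove while the pair travels to the endosome, H2-DM then exchanges its remnant for peptide, and H2-DO restrains H2-DM. CIITA, a coactivator that does not itself bind DNA, is recruited to a shared set of promoter elements, the X and Y boxes, by RFX, CREB and NF-Y proteins. In macrophages IFN-γ switches on Ciita through JAK kinase signalling, whereas dendritic cells and B cells express it constitutively.

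The promoter sequences are shown because these shared elements are what ties the members to Ciita in textbook accounts. Of the 10 genes, 7 have an entry in the RefSeq promoter table for GRCm38.p6, which spans 250 bases before to 50 bases after each start site. Stretches of 53 to 56 bases are printed 5′ to 3′ on the gene's own strand, and capitals mark GNAAC, the core of the X box, and GATTGG, the reverse complement of the CCAAT of the Y box.

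H2-Aa, chr17:34287861-34287916, minus strand: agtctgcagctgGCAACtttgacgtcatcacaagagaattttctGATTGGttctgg
H2-Eb1, chr17:34305764-34305818, plus strand: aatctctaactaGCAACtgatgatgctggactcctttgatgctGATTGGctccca
H2-DMb1, chr17:34153085-34153140, plus strand: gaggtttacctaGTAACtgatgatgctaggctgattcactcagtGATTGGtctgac
H2-DMb2, chr17:34145114-34145169, plus strand: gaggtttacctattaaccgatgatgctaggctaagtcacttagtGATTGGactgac
H2-Oa, chr17:34092291-34092346, plus strand: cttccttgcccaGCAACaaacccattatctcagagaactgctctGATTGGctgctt
H2-Ob, chr17:34238806-34238858, plus strand: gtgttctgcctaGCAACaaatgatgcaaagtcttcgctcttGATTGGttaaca

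In 5 of the 7 genes, H2-Aa, H2-Eb1, H2-DMb1, H2-Oa and H2-Ob, GNAAC was followed by GATTGG after 24 to 27 bases. The members were searched on the gene's own strand only, and the whole table on both strands. A gap of 20 to 35 bases was allowed, a range chosen after these sequences had been seen. Over all 32851 promoters of the table, GATTGG occurred in 16.1%, GNAAC in 84.8% and the pair in 0.922%. The H2-DMb2 promoter held GATTGG without GNAAC at that spacing, although its window matched that of H2-DMb1 at 50 of 56 bases (89.3%). Neither entry for H2-DMa held the pair on the gene's own strand. A match describes the letters only, and its absence says that these letters were not in the window on that strand. H2-Ab1, Cd74 and Ciita were not in the table.

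The authors deposited the bead-averaged intensity of each probe, not normalized between arrays, with a detection p-value, the share of negative control probes brighter than the probe. Detection p-values were under 0.05 for 46.0% to 49.3% of probes per array. Each array was scaled on probes that kept their rank, values under 1 were set to 1, and differences on the log2 scale were tested with limma over 13868 probes. A difference was called at a Benjamini-Hochberg adjusted p under 0.05. Each gene is given by its brightest probe, and intensities of different genes were not compared, since each depends on its probe. In such bulk RNA, more cells that express a gene and more of its RNA per cell cannot be told apart.

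Nos2, the targeted gene, was examined first. Its scaled intensity was 177 and 132 on the WT M1 arrays and 180 and 204 on the iNOS-/- M1 arrays, and it was not detected on any of the 4 unstimulated arrays. Nos2 RNA was therefore not lower on the M1 arrays labelled iNOS-/-, and the difference of 0.32 on the log2 scale (SE 0.32, adjusted p = 0.445 from limma) was not called. The probe starts at position 3546 of the transcript, and whether the mutant allele still makes RNA there cannot be read from these files. Genotype directions below rest on the labels.

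Ciita, the switch of the pathway, was low on the WT unstimulated arrays alone. Its scaled intensity was 65.7 and 56.9 on the WT unstimulated arrays, 676 and 644 on the WT M1 arrays, 736 and 756 on the iNOS-/- unstimulated arrays, and 1065 and 1180 on the iNOS-/- M1 arrays. No 2 groups overlapped, and the unstimulated iNOS-/- arrays lay slightly above the activated WT arrays. On the log2 scale the group means were 5.93 ± 0.15, 9.37 ± 0.05, 9.54 ± 0.03 and 10.13 ± 0.10 in that order (SD, n = 2 arrays each). Ciita rose 10.8-fold on M1 activation of WT cells (log2 change 3.43, SE 0.11, limma adjusted p = 5.22e-05). It was 12.2-fold higher in unstimulated iNOS-/- than in unstimulated WT cells (3.61, SE 0.11, adjusted p = 6.58e-05). Activation of iNOS-/- cells raised it by a further 1.5-fold (0.59, SE 0.11, adjusted p = 0.00782), a call that was lost with quantile normalization. The step from WT M1 to iNOS-/- M1 was 1.70-fold (0.76, SE 0.11, adjusted p = 0.00347).

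The 3 class II chain genes followed the same direction in every comparison with WT unstimulated cells. H2-Aa encodes the alpha chain of I-A, the class II molecule of C57BL/6 mice. H2-Aa read 2519 and 2314 on the WT unstimulated arrays, 4914 and 5077 on WT M1, 5332 and 4975 on iNOS-/- unstimulated, and 6497 and 7502 on iNOS-/- M1 arrays. The WT M1 and iNOS-/- unstimulated arrays overlapped, with the WT unstimulated arrays below them and the iNOS-/- M1 arrays above. The rise in WT cells was 2.07-fold (log2 change 1.05, SE 0.11, limma adjusted p = 0.00202), the smallest among the 10 genes.

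H2-Ab1 encodes the I-A beta chain. The brightest of its 3 probes read 3964 and 4079 on WT unstimulated, 14094 and 15272 on WT M1, 15724 and 15105 on iNOS-/- unstimulated, and 18832 and 21287 on iNOS-/- M1 arrays. The middle groups again overlapped and the outer groups stood apart. The WT response was 3.65-fold (log2 change 1.87, SE 0.10, limma adjusted p = 0.000224), and the other probes gave 2.05 and 2.36 on the log2 scale. All 3 probes were called in the same direction in the 4 comparisons of genotype or activation. The probe starting at position 732 read 1433 and 1449, 6745 and 8067, 8249 and 8272, and 11499 and 11224 in the same order of groups.

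H2-Eb1 encodes the beta chain of I-E. It read 1690 and 1758 on WT unstimulated, 10734 and 11809 on WT M1, 10666 and 11218 on iNOS-/- unstimulated, and 16040 and 15876 on iNOS-/- M1 arrays. Its WT M1 and iNOS-/- unstimulated values could not be separated, with a log2 difference of -0.04 (SE 0.09, limma adjusted p = 0.797). H2-Eb1 rose 6.53-fold in WT cells on activation, and its iNOS-/- M1 level lay 1.42-fold above WT M1 (log2 difference 0.50, SE 0.09, adjusted p = 0.00719). Its usual partner gene H2-Ea, listed by RefSeq as a transcribed pseudogene in this strain's genome, was not detected on any array and was not tested.

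Cd74, which encodes the invariant chain, came close to the top of the measured range. Its brighter probe read 8386 and 7881 on WT unstimulated, 23134 and 25026 on WT M1, 18763 and 17583 on iNOS-/- unstimulated, and 23991 and 25050 on iNOS-/- M1 arrays. Outside WT unstimulated cells this probe stood at 95.3% to 100% of the highest intensity on its array, so its differences among those 3 groups follow the scale factors of the arrays closely. Before scaling, the order of the middle groups was the opposite, with 19706 and 19227 on WT M1 arrays against 21956 and 21632 on iNOS-/- unstimulated arrays. The rise in WT cells was 2.96-fold (log2 change 1.57, SE 0.09, limma adjusted p = 0.000302), and 1.09 on the log2 scale with quantile normalization. The difference between the unstimulated groups was 1.16, and 1.15 with quantile normalization. No difference between the M1 groups was called (log2 difference 0.03, SE 0.09, adjusted p = 0.836).

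**Figure D1:**
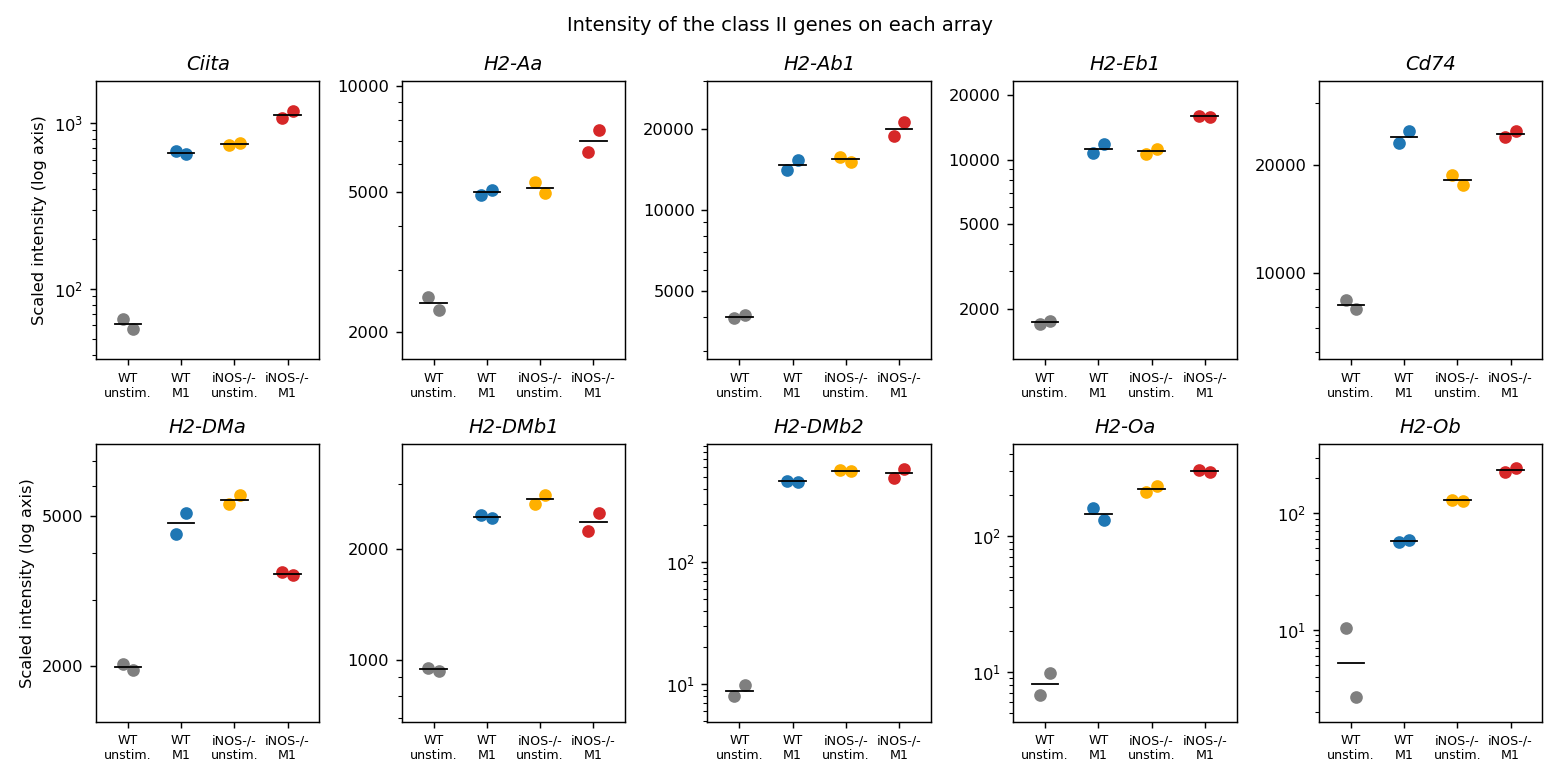
Scaled intensity of the 10 class II genes (log axis, brightest probe of each gene), with 1 point for each of the 2 arrays in the 4 groups and a line at the mean of the log2 values. The WT unstimulated points lie below all others for every gene, and the WT M1 and iNOS-/- unstimulated points of Ciita lie together at 644 to 756.

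The H2-DM genes were raised over WT unstimulated cells in every other group, and none of them was called higher on activation of iNOS-/- cells. H2-DMa encodes the alpha chain of the peptide exchanger. It read 2025 and 1952 on WT unstimulated, 4479 and 5092 on WT M1, 5380 and 5668 on iNOS-/- unstimulated, and 3541 and 3496 on iNOS-/- M1 arrays. No groups overlapped, and the iNOS-/- M1 arrays lay between WT unstimulated and WT M1. H2-DMa rose 2.40-fold on activation in WT cells (log2 change 1.26, SE 0.10, limma adjusted p = 0.000719) and fell 1.57-fold on activation in iNOS-/- cells (-0.65, SE 0.10, adjusted p = 0.00347). It was 1.36-fold lower in iNOS-/- M1 than in WT M1 cells (-0.44, SE 0.10, adjusted p = 0.0151), and -0.86 with quantile normalization or neqc. That call was lost in the fit on the 4 M1 arrays (adjusted p = 0.0671 from limma) and without WT M1 array 2 or either iNOS-/- M1 array.

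H2-DMb1 and H2-DMb2 encode beta chains for the same molecule and are near-identical neighbours, and probe matching to the other copy could not be checked here. H2-DMb1 read 956 and 938 on WT unstimulated, 2470 and 2420 on WT M1, 2655 and 2807 on iNOS-/- unstimulated, and 2241 and 2509 on iNOS-/- M1 arrays. The activated groups of the 2 genotypes overlapped. H2-DMb2 read 7.92 and 9.91 on WT unstimulated, 462 and 451 on WT M1, 567 and 553 on iNOS-/- unstimulated, and 489 and 578 on iNOS-/- M1 arrays. It went from just above background to clearly detected, whereas H2-DMb1 started from a clear signal. H2-DMb1 rose 2.58-fold in WT cells (log2 change 1.37, SE 0.09, limma adjusted p = 0.000495) and H2-DMb2 rose 51.5-fold (5.69, SE 0.14, adjusted p = 3.07e-05). Near background the fold depends on a few intensity units, and the log2 rise of H2-DMb2 was 4.83 with a floor of 16 and 4.21 with neqc. Neither gene was called on activation of iNOS-/- cells, where the log2 changes were -0.20 (SE 0.09, adjusted p = 0.125) for H2-DMb1 and -0.08 (SE 0.14, adjusted p = 0.695) for H2-DMb2. Other settings did call them lower, H2-DMb1 with quantile normalization (-0.80), neqc and an intensity trend, and H2-DMb2 with neqc (-0.34). Between the M1 groups H2-DMb1, at -0.04 and uncalled, was called lower at -0.48 with quantile normalization or neqc.

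The H2-DO genes, whose product restrains H2-DM and is best known from B cells, rose from near background. H2-Oa, the alpha chain gene, read 6.78 and 9.82 on WT unstimulated, 159 and 130 on WT M1, 211 and 231 on iNOS-/- unstimulated, and 302 and 294 on iNOS-/- M1 arrays. The 4 groups stood apart in the same order as for Ciita. H2-Oa rose 17.7-fold in WT cells (log2 change 4.14, SE 0.20, limma adjusted p = 0.000174), with 3.17 for a floor of 16 and 2.61 with neqc. It was 2.07-fold higher in iNOS-/- M1 than in WT M1 cells (1.05, SE 0.20, adjusted p = 0.00996).

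H2-Ob, the beta chain gene, read 10.4 and 2.68 on WT unstimulated, 56.6 and 59.0 on WT M1, 131 and 128 on iNOS-/- unstimulated, and 224 and 242 on iNOS-/- M1 arrays. The order was again that of Ciita, and all 4 groups were separate. The second WT unstimulated array was not above background, since a share of 0.173 of the negative controls was brighter. That group's mean of 2.40 ± 1.38 on the log2 scale (SD, n = 2) was the least certain of all. Its WT rise of 3.45 (SE 0.61, limma adjusted p = 0.0104) therefore had the largest error among the members. It was 4.41 without WT unstimulated array 1 and 2.46 without array 2, 1.85 with a floor of 16 and 1.56 with neqc, and the call was lost on the 4 WT arrays and without WT M1 array 2. Between the M1 groups H2-Ob was 4.03-fold higher in iNOS-/- cells (2.01, SE 0.61, adjusted p = 0.0419), a call that was lost when any 1 M1 or iNOS-/- unstimulated array was left out, with values of 1.97 to 2.07.

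Across the members, M1 activation of WT cells was called higher for all 10 genes, against 35.1% of all probes called (20.8% higher, 14.3% lower). The groups did not overlap for any of the 10, which held in this direction for 39.9% of all probes and in the lower direction for 31.4%. The members' median log2 change was 2.29 against 0.09 over all probes. Between the unstimulated groups all 10 were likewise higher in iNOS-/- cells, where 32.2% of probes were called (16.7% higher, 15.4% lower), with a median of 2.30 against 0.00. These differences ran from 1.09 (SE 0.11, limma adjusted p = 0.00182) for H2-Aa to 5.98 (SE 0.14, adjusted p = 3.41e-05) for H2-DMb2. The 2 comparisons share the WT unstimulated arrays, so a low value there raises both.

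Setting unstimulated iNOS-/- cells against WT M1 cells avoids those arrays. Of the 10 genes, 9 were not called, and Cd74 was called lower (log2 difference -0.41, SE 0.09, limma adjusted p = 0.0471), where 13.6% of all probes were called (3.81% higher, 9.76% lower). The uncalled differences ran from -0.04 for H2-Eb1 to 1.16 (SE 0.61, adjusted p = 0.268) for H2-Ob, and that for Ciita was 0.18 (SE 0.11, adjusted p = 0.340). In a fit on the 4 arrays compared, H2-Ob was called higher and Cd74 was not called. The 2 groups did not overlap for 6 genes in the higher direction (26.7% of all probes) and for Cd74 in the lower direction (35.5%). Scaling mattered here, since 5 members were called higher and none lower after neqc (background modelling with quantile normalization), and Cd74 was then at 0.06. Among all called probes the share that was higher in this comparison moved from 28.1% to 54.8% with neqc and 48.0% with quantile normalization.

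**Figure D2:**
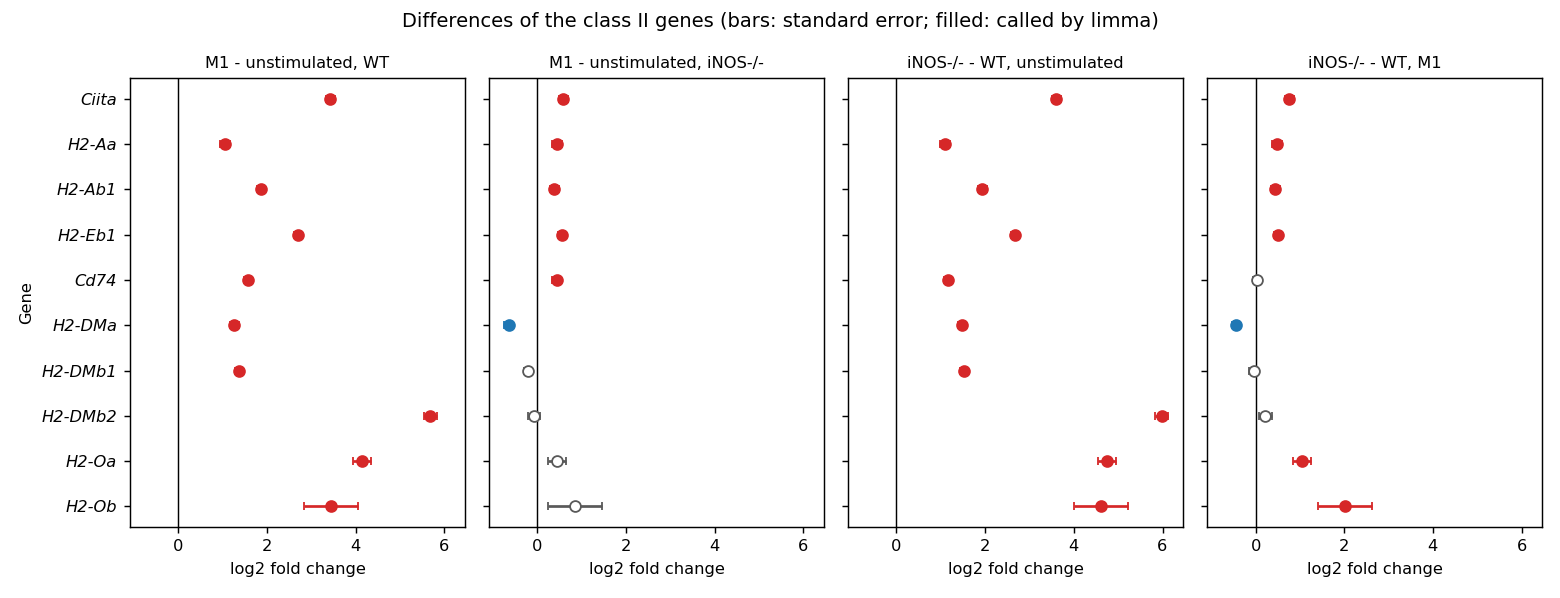
Log2 differences of the 10 genes (rows) in 4 comparisons (panels), with bars of 1 standard error and a line at 0. Filled points were called by limma, red for higher and blue for lower, and open points were not. All 10 points lie above 0 for M1 activation of WT cells and for the unstimulated genotypes (1.05 to 5.98), while those for activation of iNOS-/- cells run from -0.65 to 0.85 and those between the M1 groups from -0.44 to 2.01.

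Activation of iNOS-/- cells raised 5 members, Ciita, H2-Aa, H2-Ab1, H2-Eb1 and Cd74, and lowered H2-DMa, where 50.3% of all probes were called (25.2% higher, 25.1% lower). The 2 groups did not overlap for 7 genes in the upward direction (38.9% of all probes) and for H2-DMa and H2-DMb1 in the downward direction (38.2%). The 5 increases lay between 0.38 and 0.59 on the log2 scale, with a list median of 0.43 against 0.00 for all probes. They did not withstand another scaling: with quantile normalization no member was called higher and 2 were called lower, the change of H2-Aa was -0.25, that of H2-Ab1 -0.13 and that of Cd74 0.00, and that of Ciita was 0.16 without a call. The median of all probes itself moved from 0.00 to -0.13 under that scaling. The largest increase, that of H2-Ob (0.85, SE 0.61, limma adjusted p = 0.294), was not called with the scaling used. Neither was that of H2-Oa (0.43, SE 0.20, adjusted p = 0.135). Both were called higher with neqc, with a floor of 16 and in a fit on the 4 arrays compared. Leaving out the second iNOS-/- unstimulated or the second iNOS-/- M1 array left 3 calls.

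Between the M1 groups 6 members were higher in iNOS-/- cells, Ciita, H2-Aa, H2-Ab1, H2-Eb1, H2-Oa and H2-Ob, and H2-DMa was lower, where 48.2% of all probes were called (22.9% higher, 25.3% lower). Their arrays did not overlap for 7 genes that were higher (36.6% of all probes), the 6 called and H2-DMb2, and for H2-DMa, which was lower (38.2%). The median over the members was 0.47 against -0.03 over all probes. H2-Aa differed by 0.48 (SE 0.11, limma adjusted p = 0.0166) and H2-Ab1 by 0.45 (SE 0.10, adjusted p = 0.0159). Of these, Ciita, H2-Oa and H2-Ob were also called higher with quantile normalization and with neqc, whereas H2-Aa was at 0.00 with either and the calls of H2-Ab1 and H2-Eb1 were lost. Without WT M1 array 1 the count of 7 calls dropped to 4, and without WT M1 array 2 or iNOS-/- M1 array 2 to 3. A fit on the 4 M1 arrays alone called 4.

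Against unstimulated WT cells, activated iNOS-/- cells were called higher for all 10 genes, with a median of 2.76, where 55.7% of all probes were called (28.6% higher, 27.1% lower). No gene's arrays overlapped in that comparison, which held for 40.5% of all probes in the higher and 37.3% in the lower direction. This comparison again rests on the WT unstimulated arrays.

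The response to activation was lower in iNOS-/- than in WT cells for 9 of the 10 genes by the interaction term, where 42% of all probes were called (19.4% higher, 22.6% lower). The median difference in response was -2.04 against -0.05 over all probes. It was -2.84 (SE 0.15, limma adjusted p = 0.000364) for Ciita, -5.76 (SE 0.20, adjusted p = 0.000147) for H2-DMb2 and -0.61 (SE 0.15, adjusted p = 0.0276) for H2-Aa. The H2-Aa call was lost with the replicate number as a block and when any 1 array other than the second iNOS-/- M1 array was left out. H2-Ob, at -2.60 (SE 0.86, adjusted p = 0.0605), was not called. It was called in 6 alternatives, with neqc (-0.81), a floor of 16, the stricter detection filter, an intensity trend, without WT unstimulated array 1 (-3.55) and without WT unstimulated array 2 (-1.59). For all 10 genes the unstimulated iNOS-/- cells already stood above unstimulated WT cells. The interaction term also uses the WT unstimulated arrays, so a low value there makes the difference in response lower.

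In relation to Ciita, 4 of the 9 other genes, H2-Aa, H2-Ab1, H2-Oa and H2-Ob, had the same order of group means, rising from WT unstimulated through WT M1 and then iNOS-/- unstimulated to iNOS-/- M1 cells. With quantile normalization or neqc the last step of H2-Aa and H2-Ab1 turned downward, so that 2 of these 4 no longer shared the order. H2-Eb1 took on the order of Ciita under both, with an uncalled step of 0.06 from WT M1 to iNOS-/- unstimulated. With the scaling used, the step from WT M1 to iNOS-/- unstimulated in that order was not called for any of the 4 or for Ciita itself. For all 10 genes WT unstimulated was lowest. By group means iNOS-/- M1 was highest for 7 genes and iNOS-/- unstimulated for the 3 H2-DM genes, but with quantile normalization H2-Aa and H2-Ab1 were no longer highest in iNOS-/- M1 and Cd74 was level between the iNOS-/- groups. Of the H2-DM genes only H2-DMa was called between the iNOS-/- groups with the scaling used. Likeness to Ciita was measured as the root mean square difference between profiles centred on their own mean over the 8 arrays on the log2 scale, as a description. H2-Eb1 was closest at 0.41, and 0.175% of 9687 probes detected on all arrays were closer still. H2-Oa followed at 0.48 (0.299% closer), H2-Ob at 0.72 (0.723%) and H2-Ab1 at 0.75 (0.816%). H2-DMb2 was at 0.96, Cd74 at 1.04, H2-DMb1 at 1.07 and H2-Aa at 1.10. H2-DMa, the gene that fell on activation of iNOS-/- cells, was farthest at 1.22, with 6.12% of probes closer to Ciita. This measure counts the size of a change as well as its direction, so a gene with a smaller range such as H2-Aa, whose group means spanned 1.53 against 4.20 for Ciita, lies farther away. For H2-Oa, H2-Ob and H2-DMb2 it also depends on WT unstimulated values near background. It was not computed with another floor or scaling.

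**Figure D3:**
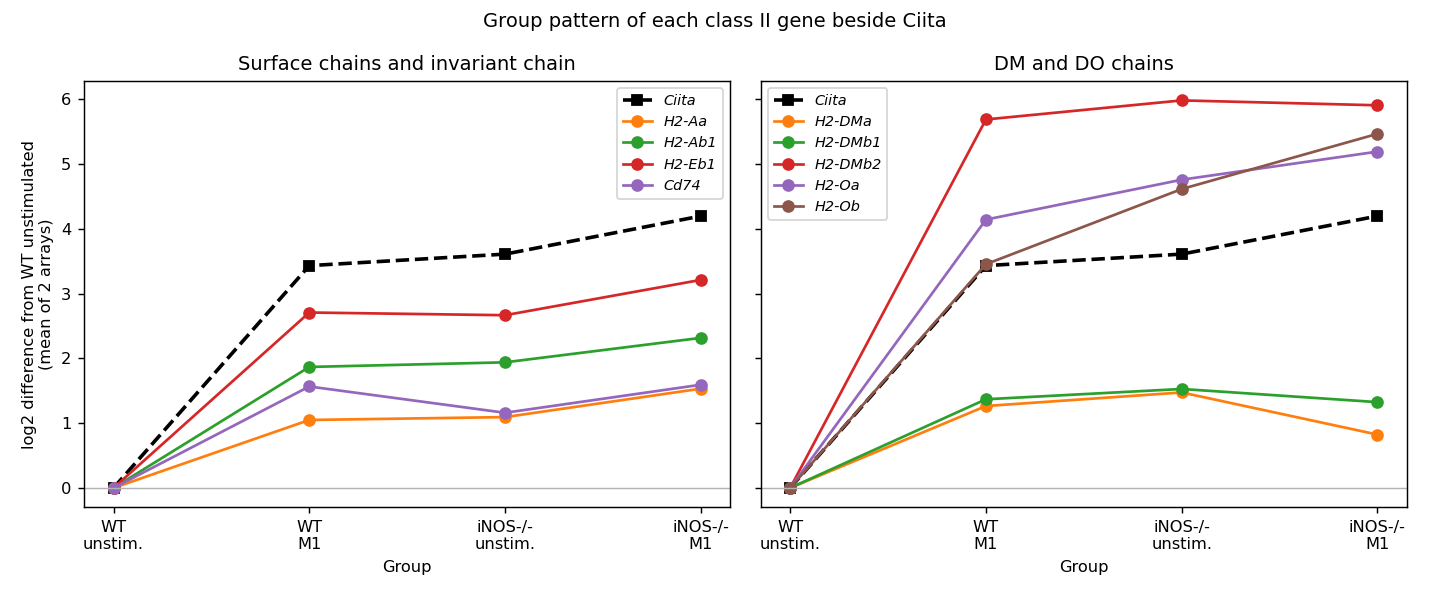
Group means (2 arrays each) of every member as log2 differences from its own WT unstimulated mean, with Ciita as a black dashed line in both panels and lines only to guide the eye. Ciita climbs to 3.43, 3.61 and 4.20, H2-Eb1 runs below it with a like shape, and H2-DMa ends lower on iNOS-/- M1 arrays (0.82) than on iNOS-/- unstimulated arrays (1.47).

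The probes outside the list that came closest to the members' mean profile were LOC641240 (0.17), 2310046K01Rik (0.20), H1fx (0.21), Lmnb1 (0.25) and BC024997 (0.26), where the median over 9675 probes was 1.23. LOC641240 is a predicted class II beta chain gene in the array's annotation, and its probe shares a run of 18 of 50 bases with the brightest H2-Ab1 probe. Closest to Ciita itself were Slc27a3 (0.19), A430084P05Rik (0.27), Car2 (0.28), Asns (0.29) and BC024997 (0.33). These are likenesses of pattern over 8 arrays of 4 groups.

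Other genes of the class II pathway were taken from a list of 30, of which 27 could be tested. The 3 others, H2-Ea, Rfx5 (the DNA-binding RFX subunit) and Prdm1 (a repressor of Ciita), were detected on too few arrays. On activation of WT cells 10 were called higher and 4 lower (20.8% and 14.3% of all probes), and on activation of iNOS-/- cells 12 were higher and 5 lower (25.2% and 25.1%). Between the unstimulated groups 7 were higher and 8 lower in iNOS-/- cells (16.7% and 15.4%), so this list did not show the one-sided shift of the members. Between unstimulated iNOS-/- and WT M1 cells, where most members were uncalled, none was higher and 9 were lower (3.81% and 9.76%).

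The IFN-γ route to Ciita had 8 genes, and 6 were higher and 2 lower in iNOS-/- M1 than in WT M1 cells, where 22.9% of all probes were higher and 25.3% lower. Irf1, an interferon-induced factor that acts on the Ciita promoter, read 1725 and 1519 on WT unstimulated, 3404 and 3281 on WT M1, 817 and 815 on iNOS-/- unstimulated, and 8467 and 9438 on iNOS-/- M1 arrays. Unlike Ciita, Irf1 was low on both kinds of unstimulated array, and no groups overlapped. Irf1 was thus lower in unstimulated iNOS-/- than in unstimulated WT cells (log2 difference -0.99, SE 0.11, limma adjusted p = 0.00224), in the comparison where all 10 members were higher. Its response to activation was larger in iNOS-/- cells by 2.41 (SE 0.15, adjusted p = 0.000470), opposite in sign to the members' differences in response. Jak2, the kinase bound to the IFN-γ receptor, rose in unstimulated iNOS-/- over WT cells by 2.78 (SE 0.12, adjusted p = 0.000138). Socs1, the feedback inhibitor of this route, was higher by 1.09 there (SE 0.20, adjusted p = 0.0133). Ifngr1, the ligand-binding receptor chain, fell by 2.17 on activation of iNOS-/- cells (SE 0.11, adjusted p = 9.96e-05), while its change in WT cells, 0.27, was not called.

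Among the promoter-binding proteins 6 of 7 genes were tested. Nfyb, an NF-Y subunit, and Creb1 were called higher in each of the 4 comparisons of activation or genotype, with differences of 0.38 to 1.25. The other Creb1 probes were detected on too few arrays to be tested. Rfxap, Rfxank and Nfya were among the uncalled. Nfyc was called lower on activation of WT cells, with log2 group means of 10.12 unstimulated and 9.78 in WT M1. Of the lineage regulators, Irf4, a factor of B cells and dendritic cells, rose by 1.64 in WT cells (SE 0.10, limma adjusted p = 0.000297). It was 1.27 higher in unstimulated iNOS-/- than in unstimulated WT cells (SE 0.10, adjusted p = 0.000769), so it went with the members in these 2 comparisons. Unlike Ciita, Irf4 had a lower log2 mean in iNOS-/- M1 cells (8.15) than in WT M1 (8.81) and iNOS-/- unstimulated cells (8.44). Irf8 also rose in WT cells, by 1.71 (SE 0.17, adjusted p = 0.00168), but its unstimulated genotype difference of -0.27 was not called. Spi1, encoding PU.1, rose by 0.71 in WT cells.

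**Figure D4:**
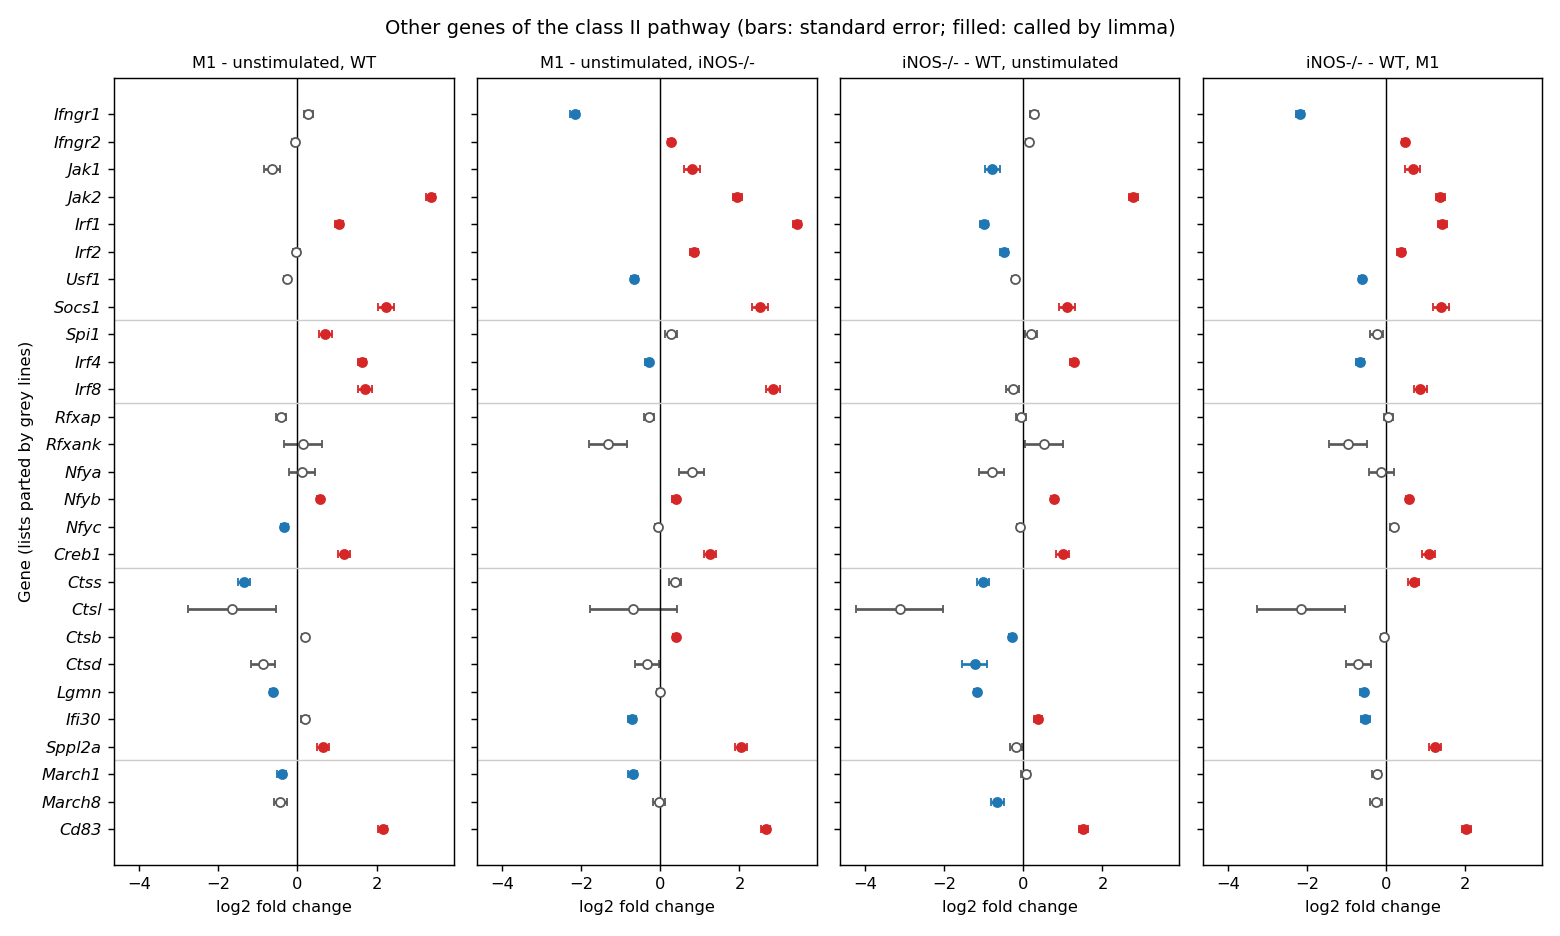
Log2 differences of the 27 tested class II pathway genes outside the member list (rows, grouped by role) in 4 comparisons (panels), with bars of 1 standard error. Filled points were called by limma, red for higher and blue for lower, and open points were not. Irf1 is lower (-0.99) and Jak2 higher (2.78) in unstimulated iNOS-/- than in unstimulated WT cells.

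The antigen processing genes did not follow the class II chains. Of 7 genes, 1 was higher and 4 were lower in unstimulated iNOS-/- than in unstimulated WT cells (16.7% and 15.4% of all probes), with a median of -1.03. Ctss, the protease that trims the invariant chain, read 3311 and 3169 on WT unstimulated, 1197 and 1344 on WT M1, 1622 and 1551 on iNOS-/- unstimulated, and 2328 and 1798 on iNOS-/- M1 arrays. Ctss was therefore highest where the members were lowest, and it fell by 1.35 on activation of WT cells (SE 0.15, limma adjusted p = 0.00232). Ifi30, the thiol reductase that unfolds antigens, was lower in iNOS-/- M1 than in WT M1 cells by 0.53 (SE 0.10, adjusted p = 0.0103). Sppl2a, which cleaves the last fragment of the invariant chain, was higher there by 1.22 (SE 0.15, adjusted p = 0.00210). Cd83, which protects surface class II from ubiquitin-driven turnover, rose by 2.16 in WT cells (SE 0.11, adjusted p = 0.000215) and was 1.52 higher in unstimulated iNOS-/- than in unstimulated WT cells (SE 0.11, adjusted p = 0.000752). March1, a ligase for that turnover, fell by 0.40 on activation of WT cells.

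Markers of cells that could share the culture were read alongside the members. All 6 macrophage markers were detected on all 8 arrays, and their summed scaled intensity was 11600 to 11608 in WT unstimulated, 8470 to 8497 in WT M1, 7548 to 7770 in iNOS-/- unstimulated and 6728 to 6853 in iNOS-/- M1 cells. Cd68 and Csf1r carried most of the fall, with means of 4696 and 3433 in WT unstimulated against 1238 and 1134 in iNOS-/- M1 cells. Adgre1 (2578 to 3178), Mertk (581 to 951) and Itgam (139 to 148) were higher in iNOS-/- M1 than in WT unstimulated cells. The 11 dendritic cell markers summed to 838 to 840, 16587 to 17132, 14130 to 14963 and 35691 to 37445 in the order of groups given for the macrophage sum. Of these, 5 were detected on all 8 arrays and Flt3 on none. Of the 9 tested, 7 were called higher both on activation of WT cells and in unstimulated iNOS-/- over unstimulated WT cells. Of all probes, 20.8% and 16.7% were called higher in these comparisons. Itgax and Clec9a were tested and not called in either. Ccl17 and Il4i1 made up most of that sum, with Ccl17 at 530 and 554 on WT unstimulated against 10651 and 9629 on iNOS-/- unstimulated arrays. The part of dendritic cells in the class II values was not tested. Of the B cell markers, Ms4a1 and Pax5 were detected on no array, and the list's sum was 47.4 to 56.1 in WT unstimulated and -0.84 to 7.13 in iNOS-/- M1 cells. In WT unstimulated cells nearly all of it was Cd22, the 1 marker of that list that was tested, at 45.5 and 52.5 on WT unstimulated and 4.06 and 1.20 on iNOS-/- M1 arrays. Granulocyte markers summed to 920 to 946, 1274 to 1393, 1564 to 1667 and 3701 to 3824, with Mpo on no array. T cell markers summed to 8.75 to 12.1, 32.0 to 46.5, 6.75 to 12.9 and 122 to 149, with Cd3e and Cd3g on no array. The parts of these cell types were not tested either.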

How the data were processed

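All 8 arrays (2 per group) were analysed. The members and gene lists were chosen with earlier results of these data known. The authors deposited probe intensity values, averaged over beads and not normalized between arrays, with the detection p-value of each. The submitters' processing notes name GenomeStudio and limma 3.14.4. The series text names the MouseRef-8 array and the methods MouseWG-8. The file header names no background subtraction, yet 25.2% to 27.2% of the values per array lie below 0, so none was subtracted here. No genome build is stated, and promoter coordinates are those of RefSeq.

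Following the methods' rank-invariant normalization, one factor per array matched it to the average of all arrays by robust regression without intercept (rlm, MASS 7.3.60.0.1) over probes whose rank changed by less than 0.05 of it, between the fractions 0.5 and 0.9 of all ranks. Factors were 0.813 to 1.30. Values were floored at 1 and put on the log2 scale. The 13868 probes (10163 symbols) detected at p under 0.05 on 2 or more arrays entered 1 limma 3.58.1 fit (R 4.3.3) of the 4 groups over all 8 arrays, with lmFit, eBayes and Benjamini-Hochberg adjustment. Within groups, arrays differed by a median absolute log2 value per probe of 0.16 to 0.19, and the number of arrays limits the precision.

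Named genes are the 10 members, the pathway and marker lists, Nos2, and the 5 probes closest to the members' mean profile and to Ciita. Lists came from general knowledge, and symbols turned into dates (March1, March8) were matched by definition. Some genes of these lists are not reported here and are left out of their counts.

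On simulated arrays with 200 changed among 13868 probes in the comparison of the M1 groups, 135 were called (48% of 2-fold and 87% of 4-fold changes), with 15 unchanged probes called (10% of calls). The changes were planted in the iNOS-/- M1 group only, in probes detected on all arrays, and the simulated spread was capped. In the data 48.2% of probes were called in that comparison, so these rates do not carry over to the counts given here. Counts are approximate. Alternatives were quantile normalization, neqc, a floor of 16, no detection filter, a filter of detection p under 0.01 on 4 arrays, a fit on the arrays compared, the replicate number as a block, an intensity trend, probe averages and each array left out.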

Additional observations from a re-analysis of the deposited data

Results flagged for a closer look

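The response to M1 activation differed between the genotypes, by the interaction term of the limma fit, for 9 of the 10 class II genes, and each such difference was lower in iNOS-/- cells. That term shares the WT unstimulated arrays with the comparisons above, and a low value there lowers it. On the log2 scale the differences in response were -0.61 for H2-Aa, -1.49 for H2-Ab1, -2.16 for H2-Eb1, -1.13 for Cd74, -1.91 for H2-DMa, -1.57 for H2-DMb1, -5.76 for H2-DMb2, -3.71 for H2-Oa and -2.84 for Ciita. For 5 genes, H2-Aa, H2-Ab1, H2-Eb1, Cd74 and Ciita, the response was upward in both genotypes and smaller in iNOS-/- cells with the scaling used, though not upward in iNOS-/- cells for H2-Aa, H2-Ab1 and Cd74 with quantile normalization or neqc, and H2-DMa rose in WT cells and fell in iNOS-/- cells.

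Among the other pathway genes 12 differed in the same way. The response was higher in iNOS-/- cells for Irf1 (2.41), Ctss (1.72), Jak1 (1.45), Sppl2a (1.41), Irf8 (1.13), Irf2 (0.88) and Lgmn (0.60). It was lower for Ifngr1 (-2.45), Irf4 (-1.94), Jak2 (-1.42), Ifi30 (-0.90) and Usf1 (-0.40). Since 42% of all probes passed this test, a call is not particular to these genes. With 2 arrays per group, no single array can be set apart from its group.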

How the results depend on the processing

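Of 70 differences (10 genes in 7 comparisons), 42 kept their direction and their side of the threshold under every alternative tried, as did 1072 of 1180 alternative values, while 58 lost the call, 33 gained it and 17 changed sign or fell to 0. All 10 genes stayed called between the unstimulated groups, 9 to 10 on activation of WT cells and 8 to 10 for the difference in response. Elsewhere counts moved. Between the M1 groups 7 became 4 on the 4 arrays compared and 3 to 7 with an array left out. On activation of iNOS-/- cells 6 became 2 with quantile normalization and 3 to 7 with an array left out. Between iNOS-/- unstimulated and WT M1 cells 1 became 5 with neqc, 3 with a floor of 16, 2 with an intensity trend, and 0 to 1 with an array left out. For other pathway genes there, 9 became 18 with neqc, 14 with a floor of 16, 2 on the 4 arrays and 15 with a trend, and 2 to 7 with an array left out, and between the unstimulated groups 15 became 8 to 12.

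Quantile normalization and neqc both gave -0.25 for H2-Aa, -0.13 for H2-Ab1 and 0.00 for Cd74 on activation of iNOS-/- cells, and 0.0590 for H2-Eb1 and 0.0640 for Cd74 between iNOS-/- unstimulated and WT M1 cells. For H2-Aa between the M1 groups they gave -0.000985 and -0.000976. The zero of Cd74 follows from the method, since its probe ranked 1 on all 4 iNOS-/- arrays, and the cause of the others was not tested. With each array left out in turn, 5 uncalled values changed sign. Between the M1 groups Cd74 ran from -0.0328 (without WT M1 array 1) to 0.0795 and H2-DMb1 from -0.118 to 0.0450 (without iNOS-/- M1 array 1). On activation of iNOS-/- cells H2-DMb2 ran from -0.204 to 0.0356 (without iNOS-/- M1 array 1). Between iNOS-/- unstimulated and WT M1 cells H2-Eb1 ran from -0.112 to 0.0276 (without WT M1 array 2) and H2-Aa from -0.00498 (without iNOS-/- unstimulated array 1) to 0.0988. On activation of WT cells 59.3% of called probes were higher, against 47.4% with quantile normalization and 44.4% with neqc. Quantile normalization moved the median log2 change of all probes from 0.09 to -0.06 there and from 0.05 to -0.10 between iNOS-/- M1 and WT unstimulated cells.

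Arrays of the same number did not deviate together over all probes (r from -0.038 to 0.025 over 13868 probes). This r does not decide whether the numbers pair the arrays, since a pairing that shifts few probes would hardly move it. With the replicate number as a block, 6 members were called between the M1 groups, 8 for the difference in response, and 0 members and 3 pathway genes between iNOS-/- unstimulated and WT M1 cells, where 1 and 9 were called without it. With 2 arrays per group, a lone array is assumed to vary like the others when its partner is left out. Values near background (H2-DMb2, H2-Oa and H2-Ob in WT unstimulated cells) are the least precise. Those near the ceiling (Cd74 outside WT unstimulated cells) follow the scale factors of the arrays closely.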

Other observations

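Cd209a, a marker of monocyte-derived dendritic cells, was picked out after its values had been seen. It read -3.79 and 3.12 on the WT unstimulated arrays, 27.6 and 35.8 on WT M1, 36.1 and 42.5 on iNOS-/- unstimulated, and -2.09 and -3.00 on iNOS-/- M1 arrays. It was therefore above background in the middle groups, where Ciita stood at 644 to 756, and around 0 on the iNOS-/- M1 arrays, where Ciita was highest. Its list as a whole did not share that drop, since the summed intensity was highest on the iNOS-/- M1 arrays (35691 to 37445). Of the 9 dendritic cell markers tested, 5 were called higher and 1 lower on activation of iNOS-/- cells (25.2% and 25.1% of all probes). Zbtb46, another dendritic cell gene, read 8.63 and 5.53, 46.8 and 41.3, 43.6 and 41.1, and 64.8 and 78.9 in the same order of groups. Its group means had the order of those of H2-Eb1, although its middle groups overlapped. The other dendritic cell markers were not set beside Ciita or H2-Eb1 here.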
